A study of Mus musculus with 8 samples.

Results

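Epithelial cells are joined to one another by tight junctions, adherens junctions and desmosomes, and 35 genes of these junctions and of epithelial identity were followed here in mouse uterus. The genes were named one by one and found by symbol among the 19938 genes that the array measures with a probe set of a single symbol. All 35 were present, and each is represented by its brightest probe set over the 8 arrays, chosen without regard to group. The pregnant group held 4 uteri of C57BL/6 females, an inbred strain, mated with fertile males and collected on day 3 at 22 h, with the night of mating as day 0. Blastocysts had been flushed from these uteri, and no blue dye reaction, the sign of embryo attachment, was seen. The pseudopregnant group held 4 uteri of C57BL/6 females mated with vasectomised males and collected at the same hour, so that no embryo was present. The kind of male differed between the groups together with the presence of embryos. The females were young virgins at mating, the samples were selected for RNA quality, and no transgene or drug is named in the labels. The groups follow the titles and the pregnancy labels, which agree on all 8 samples, while the description field reads pregnant for all 8. Whole uterus was used, a mixture in which epithelium is one tissue beside stroma, muscle, vessels and leukocytes. Fewer epithelial cells and less RNA per epithelial cell cannot be told apart in such samples.

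The uterine lining is a single layer of luminal epithelium that continues into the glands. Claudins and occludin seal the space between neighbouring cells at the tight junction, with the ZO proteins (Tjp1, Tjp3) and cingulin (Cgn) on its inner face. E-cadherin (Cdh1) holds cells together at the adherens junction, and desmosomes tie the keratin network of one cell to that of the next. In the days before an embryo attaches, the luminal epithelium is known to lose part of its polarity and to reorganise its lateral junctions. The comparison asks which of these genes differ in a uterus that holds embryos from one that does not, at a time before attachment.

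Of the 35 genes, 0 passed the test at an adjusted p under 0.05 (limma, Benjamini-Hochberg over 17494 probe sets), against a background of 1.82% of all probe sets tested. The smallest adjusted p among them was 0.117, for Cldn3. All 35 genes passed the filter on low values, which asks for 4 of 8 arrays above the 40th percentile of the array, and 34 of them lay above that line on every array. The exception was the desmosomal cadherin Dsc2, below it on 1 pregnant and 1 pseudopregnant array. The arrays are labelled as biological replicates, and with 4 per group their number sets how precise each value can be. Of the 35 genes, 25 had a log2 difference below 0 (pregnant minus pseudopregnant) and 10 above, which is 71.4% below 0 against 49.4% of all probe sets tested. The median difference over the genes was -0.12, against 0.0019 over all probe sets. At an unadjusted p under 0.05, 6 genes were lower (17.1%, against 9.43% of all probe sets) and 1 was higher (2.86%, against 14.3% of all). The lower ones were Cldn3, Cldn7, Cldn12, Cgn, Krt19 and Elf3, and the higher one was Krt7. Groups that did not overlap on any array were seen for 1 gene, Cldn3, lower in the pregnant group (2.86%, against 5.38% of all probe sets). For 0 genes did all pregnant arrays lie above all pseudopregnant ones, against 9.23% of all probe sets. The largest differences reached -0.46 (0.729-fold, Krt19) and 0.45 (1.37-fold, Cldn10). The 95% intervals of the differences, each taken singly, excluded a 2-fold change in either direction for all 35 genes and a 1.5-fold change for 27 of them. Near background the processing compresses changes, so for genes of low signal a narrow interval does not exclude a larger change in RNA.

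**Figure D1:**
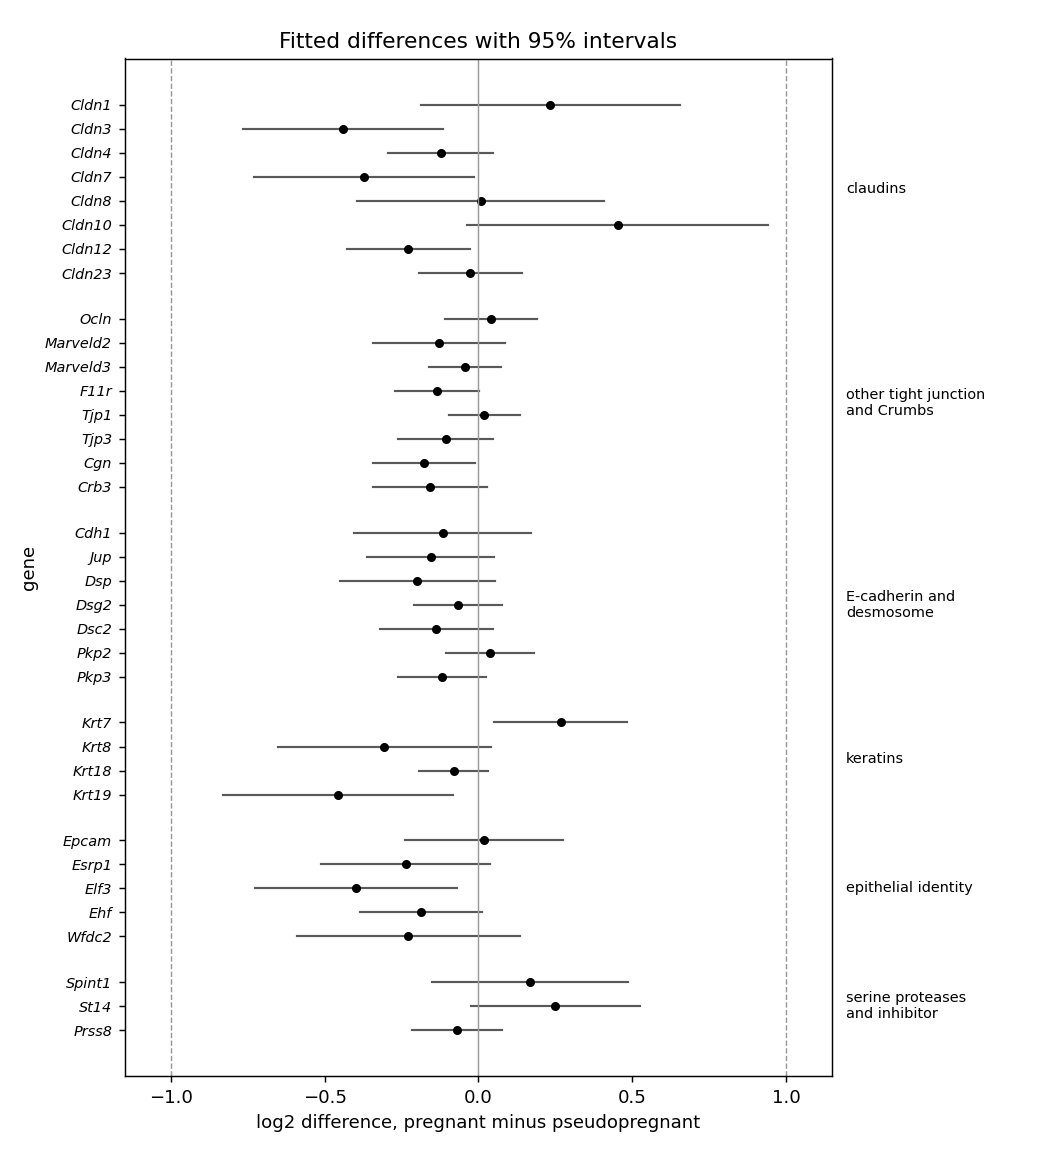
Log2 difference, pregnant minus pseudopregnant, of each of the 35 genes (points) with its 95% interval from limma (lines), ordered by role, with dashed lines at a 2-fold change. All 35 intervals lie between the dashed lines, and the points run from -0.46 for Krt19 to 0.45 for Cldn10.

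The arrays were alike in scale, with median intensities of 55.2 to 56.3 and correlations of 0.984 to 0.994 between arrays of a group. On the largest axis of variation over all probe sets, with 46.1% of the variance, pregnant replicate 2 (-26.7) and pseudopregnant replicate 1 (20.3) lay farthest out, each on the side of its own group. The same arrays stood apart for the epithelial genes. Pregnant replicate 2 held the lowest of the 8 values for 18 of the 35 genes (51.4%, against 22.0% of all probe sets), and pseudopregnant replicate 1 held the highest for 16 of 35 (45.7%, against 17.8%). The mean deviation of the 35 genes from their own means was -0.15 on pregnant replicate 2 and between -0.018 and -0.0059 on the other pregnant arrays. It was 0.14 on pseudopregnant replicate 1 and between -0.017 and 0.043 on the other pseudopregnant arrays. Without both arrays, a choice made after seeing the data, 24 of the 35 differences lay below 0 and the median of the 35 was -0.038. Of the 25 genes below 0 with all arrays, 23 were also below 0 without the pair, while Cdh1 (0.090) and Cldn23 (0.026) were above 0 and Cldn8 (-0.028) was below. The count of genes that passed was 0 with and without them.

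**Figure D2:**
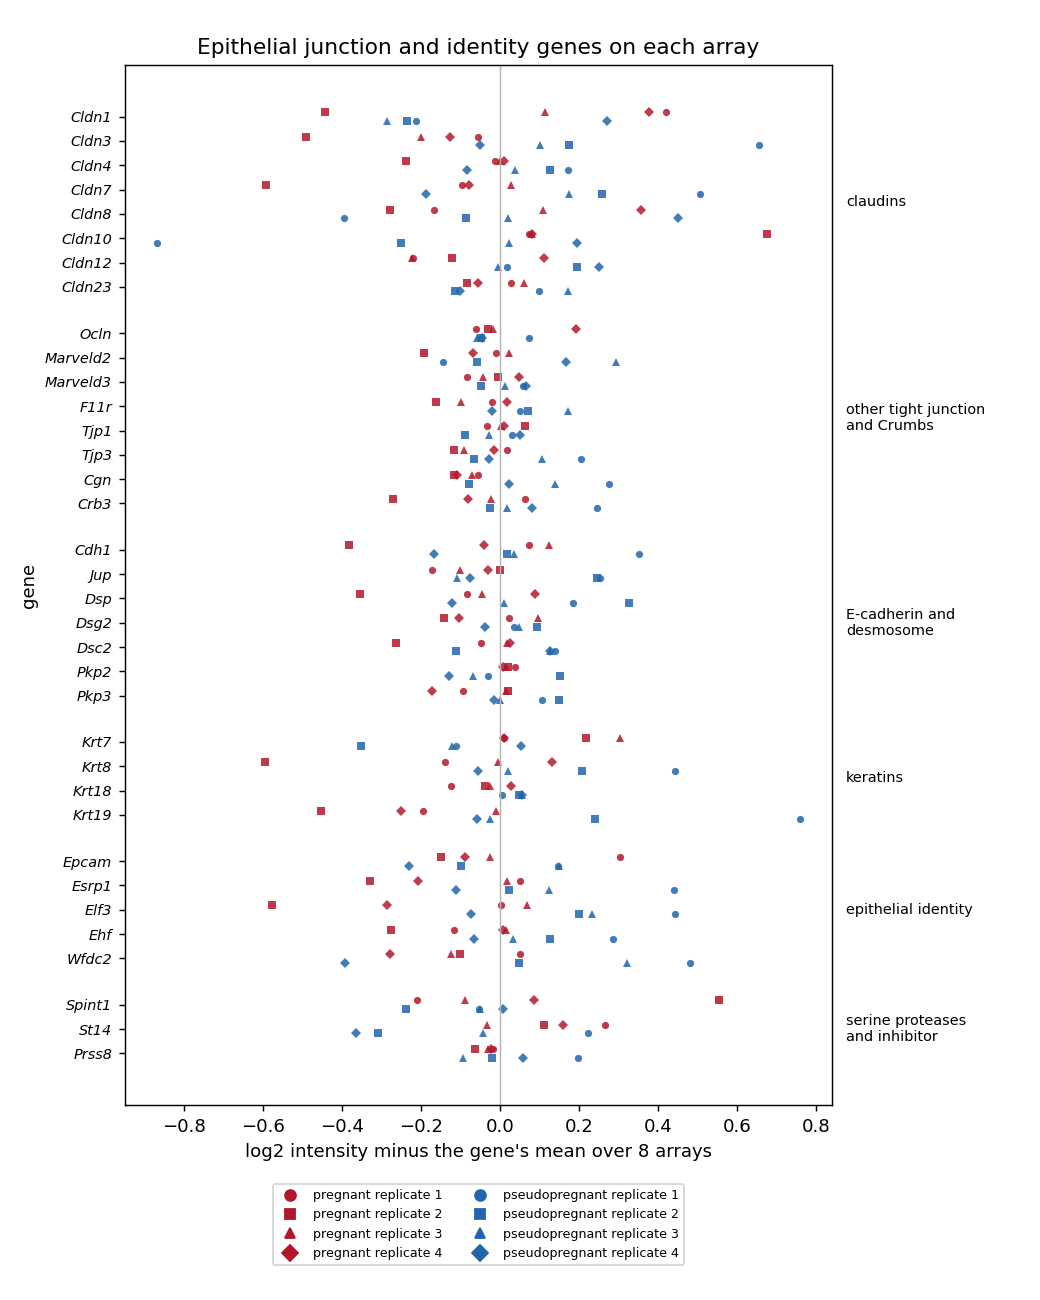
Log2 intensity of each gene on each array, minus the mean of that gene over the 8 arrays, with pregnant arrays (red) drawn above pseudopregnant arrays (blue) and replicates told apart by shape. Pregnant replicate 2 (red squares) is at the left end for 18 genes and pseudopregnant replicate 1 (blue circles) at the right end for 16.

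Promoter windows are shown for 4 genes that all hold the motif marked below. They are Cldn3, the 1 gene whose groups did not overlap, its neighbour Cldn4, the polarity gene Crb3, and Krt7. Krt7 was the 1 gene higher at an unadjusted p under 0.05. Cldn4 and Crb3 do not stand out by their differences (-0.12 and -0.16). Each window runs from 250 bases before to 50 bases after the start of the gene in RefSeq (GRCm38.p6) and is written along the strand of the gene. Capitals mark CAGGTG or its reverse complement CACCTG, an E-box known as a binding motif of the Snail and Zeb repressors of epithelial genes.
Cldn3 (chr5:134985964-134986263, plus strand): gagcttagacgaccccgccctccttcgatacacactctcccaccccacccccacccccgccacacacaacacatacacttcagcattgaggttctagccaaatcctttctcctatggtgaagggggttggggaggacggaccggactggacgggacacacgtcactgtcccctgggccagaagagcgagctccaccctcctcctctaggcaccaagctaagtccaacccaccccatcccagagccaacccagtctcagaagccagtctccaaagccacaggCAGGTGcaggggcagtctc
Cldn4 (chr5:134946885-134947184, minus strand): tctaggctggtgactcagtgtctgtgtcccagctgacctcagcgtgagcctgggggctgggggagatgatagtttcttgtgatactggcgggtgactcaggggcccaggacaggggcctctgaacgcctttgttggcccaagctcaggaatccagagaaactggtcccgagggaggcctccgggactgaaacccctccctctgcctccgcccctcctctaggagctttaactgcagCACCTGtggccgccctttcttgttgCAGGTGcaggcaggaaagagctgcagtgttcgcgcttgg
Crb3 (chr17:57061951-57062250, plus strand, the first of 2 listed windows): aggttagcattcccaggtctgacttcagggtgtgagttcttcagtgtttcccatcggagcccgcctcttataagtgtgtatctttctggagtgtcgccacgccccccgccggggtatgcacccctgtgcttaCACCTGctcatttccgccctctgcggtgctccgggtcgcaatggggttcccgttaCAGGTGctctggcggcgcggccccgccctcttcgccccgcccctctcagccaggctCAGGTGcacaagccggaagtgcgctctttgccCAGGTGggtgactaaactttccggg
Krt7 (chr15:101412153-101412452, plus strand): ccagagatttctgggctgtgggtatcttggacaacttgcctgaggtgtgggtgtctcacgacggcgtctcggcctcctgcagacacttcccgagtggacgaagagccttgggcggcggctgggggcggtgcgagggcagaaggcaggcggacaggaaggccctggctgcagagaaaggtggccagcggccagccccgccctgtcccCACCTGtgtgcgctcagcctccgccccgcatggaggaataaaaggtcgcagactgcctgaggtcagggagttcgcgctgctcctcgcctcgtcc
Cdh1, Krt19, Esrp1, Ehf, Cldn8, Cldn23, Marveld3, Dsg2, Dsc2, Pkp2, Pkp3, St14 and Prss8 had no listed window and were not searched. RefSeq windows were found for 22 of the 35 genes, 31 windows in all, several of which overlap. The motif was present in a window of 15 of these 22 genes and in 20 of the 31 windows (64.5%), against 6640 of all 32851 windows (20.2%). A pair or more of copies was present in 8 of the 31 windows (25.8%), against 2.88% of all windows. Cldn3 held 1 copy, 31 bases past the gene start, and Cldn4 held 2, the first base of one at -14 and of the other at 11. Crb3 held 4 copies, at -118, -63, -7 and 25, more than any other of the 22 genes. Of all 32851 windows, 18 (0.0548%) held 4 or more. As the largest count among these genes, that of Crb3 cannot be read against this share. Krt7 held 1 at -44. No copy was found in the windows of Cldn1, Cldn10, Cldn12, Cgn, Tjp1, Jup and Spint1. The motif was found in genes on both sides of 0, and it is a match of letters, not a measured binding site.

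The claudins are the strands of the tight junction, and each cell type carries its own set of them, which decides how ions pass between cells. Of 8 claudins, 3 had differences above 0 and 5 below, with a median of -0.075, and 0 passed. Cldn3, a sealing claudin, had log2 intensities of 7.52, 7.08, 7.38 and 7.45 on the pregnant arrays, against 8.23, 7.75, 7.68 and 7.53 on the pseudopregnant arrays. All pregnant values lay below all pseudopregnant ones, although pregnant replicate 1 and pseudopregnant replicate 4 nearly met. The difference was -0.44 ± 0.15 (SE, limma adjusted p = 0.117), with means of 7.36 ± 0.19 in pregnant and 7.80 ± 0.31 in pseudopregnant uteri (SD, n = 4 each). Cldn7, which is bound by Epcam, had 7.44, 6.95, 7.57 and 7.46 on the pregnant arrays, against 8.04, 7.80, 7.71 and 7.35 on the pseudopregnant arrays. Pseudopregnant replicate 4 lay among the pregnant values, and the difference was -0.37 ± 0.16 (SE, limma adjusted p = 0.195). Cldn12, a claudin linked to calcium passage in the mouse gut, had 6.41, 6.51, 6.41 and 6.75 on the pregnant arrays, against 6.65, 6.83, 6.63 and 6.88 on the pseudopregnant arrays. Only pregnant replicate 4 reached into the range of the other group, and the difference was -0.23 ± 0.089 (SE, limma adjusted p = 0.165).

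Cldn10, which forms ion channels, was the gene with the largest positive difference, at 0.45 ± 0.22 (SE, limma adjusted p = 0.242). It had 8.09, 8.69, 8.10 and 8.10 on the pregnant arrays, against 7.15, 7.77, 8.04 and 8.21 on the pseudopregnant arrays. The extremes were the same arrays that stood apart over all probe sets, with pregnant replicate 2 highest and pseudopregnant replicate 1 lowest, so that Cldn10 ran opposite to Cldn3 and Cldn7 on both. Without both arrays its difference was 0.089, while that of Cldn3 was -0.20 and that of Cldn7 was -0.13. Cldn1, a barrier claudin, had 8.23, 7.37, 7.92 and 8.19 on the pregnant arrays, against 7.60, 7.57, 7.52 and 8.08 on the pseudopregnant arrays. Here too pregnant replicate 2 was the lowest of the 8, and the difference of 0.23 (limma adjusted p = 0.478) became 0.42 without it (adjusted p = 0.146). Cldn12 kept its size without both arrays, at -0.26. Cldn4, another sealing claudin and the neighbour of Cldn3 on chromosome 5, differed by -0.12 ± 0.077 (SE, limma adjusted p = 0.353), with 7.17, 6.95, 7.19 and 7.19 on the pregnant arrays and 7.36, 7.31, 7.22 and 7.10 on the pseudopregnant arrays. The difference of Cldn4 was -0.028 without pregnant replicate 2 and pseudopregnant replicate 1. Cldn8 (0.0079 ± 0.18) and Cldn23 (-0.027 ± 0.075) differed least, and both turned sign with a repeated quantile normalization (-0.0037 and 3.4e-05), Cldn23 also with cyclic loess (0.014).

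Among the 8 other genes of the tight junction and of apical polarity, 2 differences lay above 0 and 6 below, between -0.18 and 0.041, and 0 passed. The 95% intervals of all 8 excluded a 1.5-fold change. Of these genes, Crb3 (means of 5.58 pregnant and 5.73 pseudopregnant) and Marveld3 (5.60 and 5.64) had low signal, at which changes are compressed. Cgn, which links the junction to actin and myosin, had 5.80, 5.74, 5.78 and 5.74 on the pregnant arrays, against 6.13, 5.77, 5.99 and 5.88 on the pseudopregnant arrays. The pregnant values lay within a narrow band, into which pseudopregnant replicate 2 fell, and the difference was -0.18 ± 0.074 (SE, limma adjusted p = 0.185). Crb3, the epithelial Crumbs protein that marks the apical side, differed by -0.16 ± 0.084 (limma adjusted p = 0.282) and by -0.038 without pregnant replicate 2 and pseudopregnant replicate 1. F11r, the junctional adhesion molecule JAM-A, lay between 7.76 and 7.94 on the pregnant arrays, against 7.91 to 8.10 on the pseudopregnant arrays. Its difference was -0.13 ± 0.061 (SE, limma adjusted p = 0.219) and stayed between -0.17 and -0.10 over 19 alternative analyses. Occludin (Ocln) differed by 0.041 ± 0.067, tricellulin (Marveld2), which seals the corners where 3 cells meet, by -0.13 ± 0.096, and their relative Marveld3 by -0.043 ± 0.052. Of the ZO scaffold genes, Tjp3, found mainly in epithelia, differed by -0.11 ± 0.069. Tjp1, which other cell types also carry, differed by 0.020 ± 0.052, and by -0.016 and -0.020 with repeated quantile normalization and cyclic loess. Its within-group SD of 0.052 was the next smallest after that of Krt18, with 8.74, 8.84, 8.78 and 8.79 on the pregnant arrays and 8.81, 8.69, 8.75 and 8.82 on the pseudopregnant arrays.

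E-cadherin and the 6 desmosome genes gave 1 difference above 0 and 6 below, with a median of -0.12, and 0 passed. Cdh1 had 8.08, 7.63, 8.14 and 7.97 on the pregnant arrays, against 8.36, 8.03, 8.05 and 7.84 on the pseudopregnant arrays. The groups overlapped widely, with pregnant replicate 2 lowest and pseudopregnant replicate 1 highest. The difference of Cdh1 was -0.12 ± 0.13 (SE, limma adjusted p = 0.609), with a 95% interval of -0.40 to 0.17, and it was 0.090 without both of those arrays. Desmoplakin (Dsp), which anchors keratin to the desmosome, had 6.48, 6.21, 6.51 and 6.65 on the pregnant arrays, against 6.74, 6.89, 6.57 and 6.44 on the pseudopregnant arrays. Its values overlapped, and the difference was -0.20 ± 0.11 (SE, limma adjusted p = 0.313). Plakoglobin (Jup), shared by adherens junctions and desmosomes, differed by -0.16 ± 0.093 (limma adjusted p = 0.333), with pseudopregnant replicates 1 and 2 (7.65 and 7.64) above the other arrays, which lay between 7.23 and 7.40. The desmosomal cadherins Dsg2 (-0.066 ± 0.064) and Dsc2 (-0.14 ± 0.082) and the plakophilins Pkp3 (-0.12 ± 0.064) and Pkp2 (0.039 ± 0.064) had limma adjusted p-values of 0.292 to 0.740. The 95% interval of each of these 7 genes excluded a 1.5-fold change. Here too some signals were low, as for Dsc2 (means of 5.27 pregnant and 5.41 pseudopregnant) and Pkp3 (5.69 and 5.80).

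The keratins form the filaments of simple epithelia, in which Krt8 pairs with Krt18, and Krt7 and Krt19 are added in many ducts and linings. Their 4 differences spread most widely of the groups beside the claudins, from -0.46 to 0.27. Krt19 had 6.66, 6.40, 6.84 and 6.60 on the pregnant arrays, against 7.61, 7.09, 6.83 and 6.80 on the pseudopregnant arrays. Pregnant replicate 3 overlapped with pseudopregnant replicates 3 and 4, and pseudopregnant replicate 1 lay highest. The difference was -0.46 ± 0.17 (SE, limma adjusted p = 0.145), or -0.28 without pseudopregnant replicate 1 and -0.20 without pregnant replicate 2 as well. Krt7 had 7.27, 7.48, 7.57 and 7.28 on the pregnant arrays, against 7.15, 6.91, 7.15 and 7.32 on the pseudopregnant arrays. Pseudopregnant replicate 4 lay above pregnant replicates 1 and 4, and the difference of 0.27 ± 0.097 (SE, limma adjusted p = 0.141) was 0.25 without the 2 outlying arrays. Krt8 had 9.35, 8.89, 9.49 and 9.62 on the pregnant arrays, against 9.93, 9.70, 9.51 and 9.43 on the pseudopregnant arrays. Its difference of -0.31 ± 0.16 (SE, limma adjusted p = 0.265) was -0.061 without the 2 outlying arrays. Its partner Krt18 lay between 7.73 and 7.88 on the pregnant arrays and between 7.86 and 7.90 on the pseudopregnant arrays, the smallest spread of the 35 genes, and differed by -0.080 ± 0.050 (SE, limma adjusted p = 0.355). RefSeq lists a pseudogene of Krt8, and probes that match both cannot be separated in the deposited values.

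**Figure D3:**
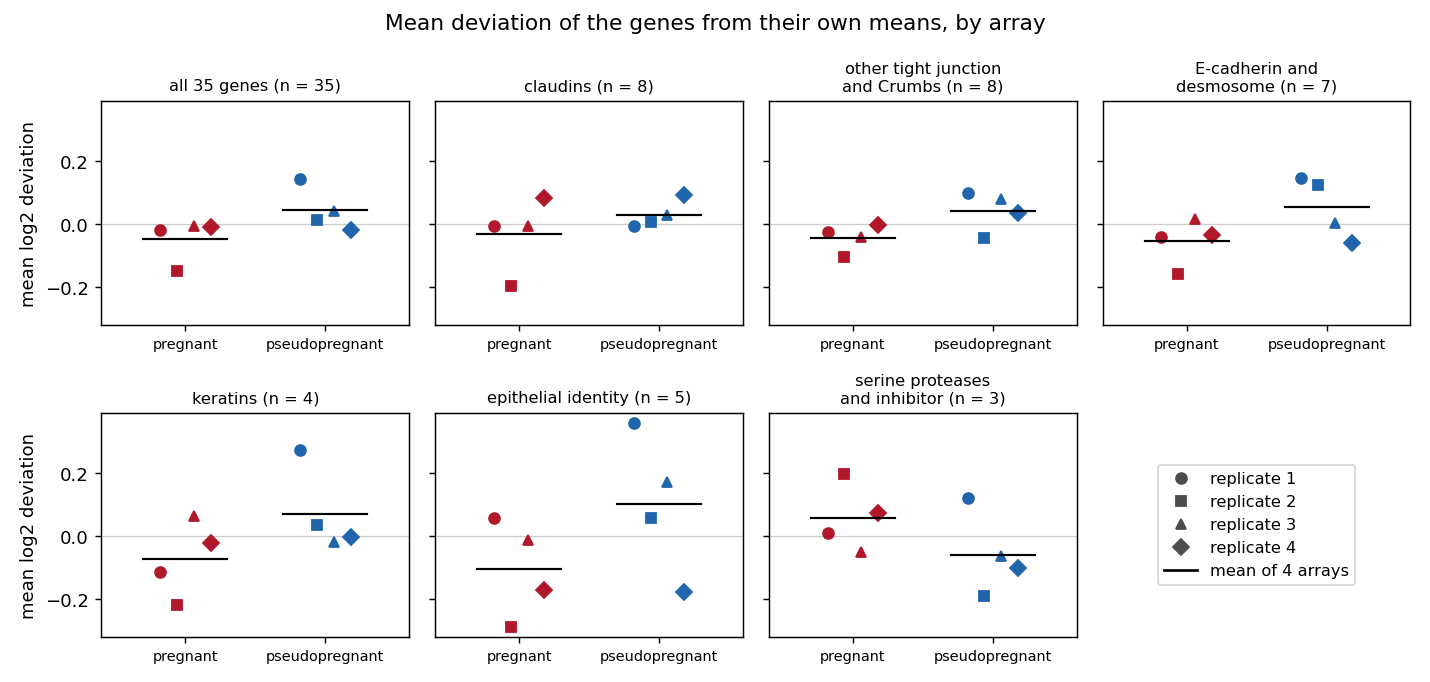
Mean over the genes of each role of their log2 deviation from their own means, for each pregnant array (red, left) and pseudopregnant array (blue, right), with replicates told apart by shape and black bars at the mean of 4 arrays. Pregnant replicate 2 is the lowest array for all roles except the proteases, where it is the highest.

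Of the 5 identity genes, 4 differences lay below 0 and 1 above. Elf3, an ETS factor of epithelial cells, had 6.10, 5.52, 6.17 and 5.82 on the pregnant arrays, against 6.54, 6.30, 6.33 and 6.03 on the pseudopregnant arrays. Pseudopregnant replicate 4 lay below pregnant replicates 1 and 3, and the difference was -0.40 ± 0.15 (SE, limma adjusted p = 0.148), or -0.19 without pregnant replicate 2 and pseudopregnant replicate 1. Its relative Ehf differed by -0.19 ± 0.090 (limma adjusted p = 0.237) and Esrp1, a splicing factor that sets epithelial isoforms, by -0.24 ± 0.12 (limma adjusted p = 0.272). Without those 2 arrays Ehf differed by -0.062 and Esrp1 by -0.059. Wfdc2, a secreted protein of genital tract epithelium, had 7.64, 7.49, 7.47 and 7.31 on the pregnant arrays, against 8.07, 7.64, 7.91 and 7.20 on the pseudopregnant arrays. Its lowest and highest values were both pseudopregnant, and the difference was -0.23 ± 0.16 (SE, limma adjusted p = 0.420). Epcam, the adhesion molecule used as a general epithelial marker, had 8.24, 7.79, 7.91 and 7.85 on the pregnant arrays, against 8.09, 7.84, 8.09 and 7.71 on the pseudopregnant arrays. The difference of Epcam was 0.018 ± 0.12 (SE, limma adjusted p = 0.936), with a 95% interval of -0.24 to 0.28, and it was -0.014 and -0.017 with repeated quantile normalization and cyclic loess.

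Matriptase (St14) and prostasin (Prss8) are membrane proteases that activate one another and act on junctions and sodium channels, and Spint1 (HAI-1) inhibits matriptase. St14 had 8.15, 7.99, 7.85 and 8.04 on the pregnant arrays, against 8.10, 7.57, 7.84 and 7.52 on the pseudopregnant arrays. Pseudopregnant replicate 1 lay among the pregnant values, and the difference was 0.25 ± 0.12 (SE, limma adjusted p = 0.248), or 0.37 without that array (limma adjusted p = 0.124). Spint1 had 7.26, 8.03, 7.38 and 7.56 on the pregnant arrays, against 7.42, 7.24, 7.42 and 7.48 on the pseudopregnant arrays. The highest value was that of pregnant replicate 2, and the difference of 0.17 ± 0.14 (SE, limma adjusted p = 0.497) was 0.013 without that array. Prss8 lay between 7.10 and 7.14 on the pregnant arrays and between 7.07 and 7.36 on the pseudopregnant arrays, and differed by -0.069 ± 0.065 (SE, limma adjusted p = 0.544).

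**Figure D4:**
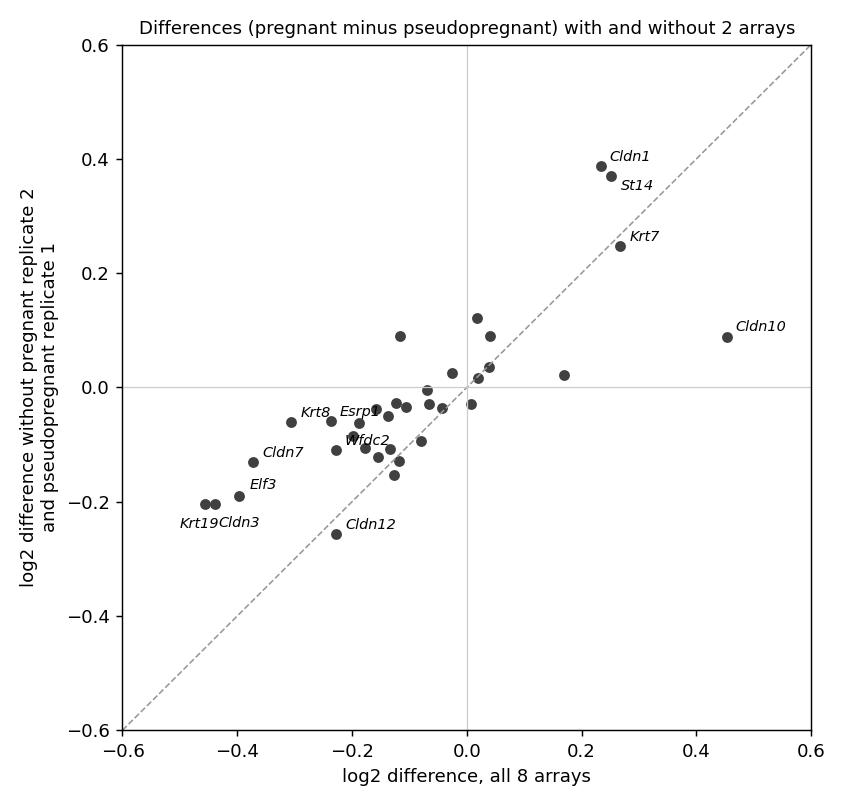
Log2 difference, pregnant minus pseudopregnant, of each of the 35 genes with all 8 arrays (horizontal axis) and without pregnant replicate 2 and pseudopregnant replicate 1 (vertical axis), with a dashed line where both are equal. Krt19, Cldn3 and Elf3 lie nearer to 0 on the vertical axis (-0.20, -0.20 and -0.19), Cldn10 drops to 0.089, and Cldn1, St14 and Krt7 stay between 0.25 and 0.39.

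Further genes of the same structures were read from 8 lists with 112 kept genes, of which 0 passed in either direction (limma). An unadjusted p under 0.05 was reached by 7 of them above 0 (6.25%, against 14.3% of all probe sets) and by 14 below 0 (12.5%, against 9.43%). Of the genes named from these lists, Ybx3 passed under 3 of the 19 alternatives, and Perp and Zeb2 under 2 each. Below, the 4 genes of smallest p in each list are given with the limma adjusted p in parentheses.

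Of 20 other tight junction genes, 15 lay below 0 (median -0.087). Jam2, a mainly endothelial adhesion molecule, stood at -0.55 (adjusted p = 0.199), Amotl1, an angiomotin relative, at -0.16 (adjusted p = 0.210), and the junction-associated factor Ybx3 at 0.26 (adjusted p = 0.055). Cldn9 stood at -0.33 (adjusted p = 0.064), but 3 of its 4 pregnant values and none of its pseudopregnant ones were below the line of the filter, so that its difference is one from values near background. The 20 polarity genes were split evenly around 0 (median 0.0050), with Lin7b at -0.17 (adjusted p = 0.195), Pard6b at -0.12 (adjusted p = 0.279), Stk11 at 0.086 (adjusted p = 0.315) and Cdc42 at 0.080 (adjusted p = 0.380). Of 14 other adherens junction genes, 9 lay above 0 (median 0.042), with beta-catenin (Ctnnb1) at 0.092 (adjusted p = 0.309), p120-catenin (Ctnnd1) at 0.097 (adjusted p = 0.360), Nectin2 at 0.11 (adjusted p = 0.30) and vinculin (Vcl) at 0.11 (adjusted p = 0.406). Of 10 further desmosome and hemidesmosome genes, 4 lay above 0, among them the desmosomal membrane protein Perp at 0.40 (adjusted p = 0.056) and the integrin Itga6 at 0.17 (adjusted p = 0.161). Its partner Itgb4 stood at -0.22 (adjusted p = 0.148) and Pkp1 at -0.23 (adjusted p = 0.113), the last with 3 pregnant values and 1 pseudopregnant value below the line.

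Only 3 of 11 other keratins had a kept probe set. The kept ones were Krt14 at 0.030 (adjusted p = 0.80), Krt23 at -0.21 (adjusted p = 0.529) and Krt80 at 0.022 (adjusted p = 0.872). Krt5 and Krt15 were among the 8 that failed the filter, but both lay above the line on pregnant replicate 2. There Krt5 was 5.97, against 4.31 to 4.78 on the other arrays, and Krt15 was 5.61, against 4.79 to 5.22. Of 21 epithelial regulators and markers, 14 lay below 0, with Ap1m2, a subunit of the epithelial sorting adaptor, at -0.32 (adjusted p = 0.098), the homeobox gene Msx1 at -0.61 (adjusted p = 0.0998) and the membrane protein Mal2 at 0.22 (adjusted p = 0.108). The tetraspanin Tspan8 stood at 0.50 (adjusted p = 0.092), with 3 of 4 pseudopregnant values and no pregnant value below the line, so that its difference too is one from values near background. Of 12 other genes in a list of proteases, inhibitors and sodium channel genes, which also holds Hgf and Met, 5 lay above 0 and 7 below. The cathepsin Ctsl stood at 0.23 (adjusted p = 0.149) and the membrane protease Tmprss2 at 0.12 (adjusted p = 0.288). Spint2, an inhibitor of matriptase and prostasin, stood at -0.18 (adjusted p = 0.164), and the channel subunit Scnn1a at -0.23 (adjusted p = 0.202), with 3 pregnant values below the line. Of 12 genes of the mesenchymal state, 9 lay above 0 (median 0.10). Zeb2, a repressor of Cdh1, stood at 0.25 (adjusted p = 0.064), the cadherin Cdh11 at 0.14 (adjusted p = 0.289) and Tcf4 at 0.094 (adjusted p = 0.297), while Twist2 had the largest difference of these 4, at -0.30 (adjusted p = 0.155). Snai1 (0.15, adjusted p = 0.337), Snai2 (0.13, adjusted p = 0.483) and Zeb1 (-0.013, adjusted p = 0.919) are outside the rule for named genes. They were added, after their values were seen, because the E-box is their motif.

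Markers of other cells were measured on the same arrays, and their part in the differences above was not tested. Summed intensities below are over all measured genes of a list, those under the line included. Such a sum follows mostly the brightest probe sets of its list and is read only between arrays. Of 8 luminal epithelium markers kept of 9, 3 lay above 0 and 5 below, and 0 passed. Their sums were 748 to 1124 on the pregnant arrays, against 950.4 to 1595 on the pseudopregnant arrays. Calb1 (-0.94, limma adjusted p = 0.213), Lpar3 (-0.50, adjusted p = 0.182), Muc1 (-0.34, adjusted p = 0.124) and Lgals3 (0.13, adjusted p = 0.342) had the smallest p in that list. Of 9 gland markers, 3 lay above 0 and 6 below, with sums of 942 to 3246 on the pregnant arrays, against 1002 to 1331 on the pseudopregnant arrays. The gland protease Prss28 had 6.08, 9.85, 7.42 and 7.09 on the pregnant arrays, against 5.96, 5.15, 6.21 and 5.99 on the pseudopregnant arrays, a difference of 1.78 (limma adjusted p = 0.141). Pregnant replicate 1 lay among the pseudopregnant values, and 1 pseudopregnant value was below the line. The related protease Prss29 differed by 1.74 (limma adjusted p = 0.142), and in both pregnant replicate 2 was the highest array. Wfdc3 was the 1 gland marker that fell, by 0.24 on the log2 scale (limma adjusted p = 0.049), a call that ended under 17 of 19 alternatives, and Aldh1a1 stood at -0.25 (limma adjusted p = 0.079).

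Of 10 leukocyte markers 8 rose, against 247 of all 17494 probe sets, with C1qb by 0.56 (limma adjusted p = 0.012), and 1 lay below 0. The leukocyte sums were 1392 to 1940.1 on the pregnant arrays, against 947 to 1144 on the pseudopregnant arrays. All 8 endothelial markers lay below 0, with a median of -0.13 beside the -0.12 of the 35 epithelial genes, and 0 passed. Their sums did not overlap, at 2853 to 3194 on the pregnant arrays, against 3257 to 3515 on the pseudopregnant arrays, and Tie1 stood at -0.30 (limma adjusted p = 0.083). Sums of the leukocyte and proliferation lists did not overlap either, with the pregnant arrays above. The same held for the polarity, other adherens junction and mesenchymal-state lists. Of 7 proliferation genes, all above 0, 1 rose, Pcna by 0.55 (limma adjusted p = 0.028), a call that ended under 9 of 19 alternatives. Pregnant replicate 2 had the highest mean deviation of the leukocyte (0.59), proliferation (0.52), gland (0.42), stroma (0.13) and smooth muscle markers (0.13). It had the lowest of the endothelial (-0.21) and luminal markers (-0.18). Of 10 stroma markers 0 passed, with sums of 10852 to 11809.5 on the pregnant arrays, against 10401 to 11179 on the pseudopregnant arrays. Of 7 mesothelium markers kept of 8, Krt19 itself among them, 0 passed, with sums of 986 to 1082 on the pregnant arrays, against 952 to 1167 on the pseudopregnant arrays. Of 8 smooth muscle markers 0 passed, with 4 on each side of 0.

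Trophectoderm, the outer layer of the blastocyst, is an epithelium too. The blastocyst genes Cdx2, Pou5f1, Nanog and Sox2 had no kept probe set, and the sums of all 8 blastocyst genes were 398 to 455 on the pregnant arrays, against 425 to 471 on the pseudopregnant arrays. Eomes was above the line on all 4 pregnant arrays and below it on all 4 pseudopregnant arrays, so that it was kept through the pregnant group alone and no exact difference is given. It was the 1 gene above 0 of the 4 kept blastocyst genes. The other 3 lay below 0, between -0.19 and -0.024, and 0 of the 4 passed. Which cells the Eomes signal came from was not tested. Oviduct and steroid-making cells were represented by 7 genes, of which Foxj1, Star, Cyp11a1, Hsd3b1 and Amh had no kept probe set. Inha, a subunit of inhibin, had 6.17, 6.16, 6.17 and 6.40 on the pregnant arrays, against 7.28, 6.22, 6.94 and 7.62 on the pseudopregnant arrays. Pseudopregnant replicate 2 lay among the pregnant values, and the difference was -0.79 (limma adjusted p = 0.097), which passed without that array (limma adjusted p = 0.045).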

How the data were processed

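Total RNA from 8 uteri was hybridised with a biotin label, per the labels, 4 pregnant and 4 pseudopregnant. The authors deposited 1 table of linear probe set intensities, for which the submitters' processing notes name RMA without a version. Its settings and array annotation were not given in the sources used here. This method equalises array distributions and compresses changes near background. The deposited intensities were put on a log2 scale. Of 35556 probe sets, 6612 of lowest identifier, without a listed gene, were taken to be controls and left out, an inference. A probe set was kept if at least 4 of 8 arrays exceeded the 40th percentile of their array, which left 17494 of 28944. Intensities of different probe sets cannot be set against one another. The test was limma (version 3.58.1, R 4.3.3), lmFit with group as the only term and eBayes, two-sided, adjusted by Benjamini-Hochberg over all kept probe sets. The code was tested on simulated data. Plots used Python 3.11.15 and matplotlib 3.10.9. All 35 symbols matched RefSeq (GRCm38.p6).

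The 35 genes, the further lists and the rule for named genes were chosen with earlier results of these data known. That rule takes all 35 genes, the 4 genes of smallest p in each further epithelial, junction, mesenchymal-state, gland and luminal list, and 1 in each other marker list. Lists are described by counts and medians, with no test over a list. Shared days of mating, collection or hybridisation are unknown, so no batch was examined. Alternatives were the filter, 3 scalings, array weights, a trended robust eBayes, an offset of 16, averaged probe sets, the replicate number as a block and leaving out arrays.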

Additional observations from a re-analysis of the deposited data

Results flagged for a closer look

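Single values far from the other 3 arrays of their group were looked for in the genes named, by the gap to the nearest value over the range of the group. Chance gives about 1 in 20 groups, and 13 of 162 groups were found, 6 of them among the 70 groups of the 35 epithelial genes. On pregnant replicate 2, Cldn10 had 8.69, while the rest of its group had 8.09 to 8.10. Cldn4 on the same array was 6.95, against 7.17 to 7.19. Cldn1 on pseudopregnant replicate 4 was 8.08, against 7.52 to 7.60 on the other pseudopregnant arrays. Dsc2 on pseudopregnant replicate 2 was 5.23, against 5.46 to 5.48. On pseudopregnant replicate 1, Ocln was 6.27, against 6.14 to 6.16, and Krt18 was 7.86, against 7.90. Among the further genes, Ap1m2 on pregnant replicate 2 was 5.50 (others 5.78 to 5.80) and Cdh11 10.77 (10.46 to 10.50). Pregnant replicate 3 held far values of Vcl (8.96, others 8.71 to 8.75) and Pcna (9.40, others 9.73 to 9.78). Wfdc3 on pregnant replicate 1 was 5.70 (others 5.60), Inha on pregnant replicate 4 was 6.40 (6.16 to 6.17), and Scnn1a on pseudopregnant replicate 1 was 5.59 (5.24 to 5.29).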

How the results depend on the processing

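Under all 19 alternatives 0 of the epithelial genes passed in either direction (limma), with the smallest adjusted p of any gene between 0.087 and 0.179. With the stricter filter 34 of the 35 genes were fitted. Of the 35, 29 kept the sign of their difference under every alternative that could be fitted. With all arrays, the other 6 had differences between -0.12 and 0.041. Cldn8 turned to -0.0037 with repeated quantile normalization, -0.015 with array weights and -0.028 without pregnant replicate 2 and pseudopregnant replicate 1 together, with -0.12 to 0.16 without single arrays. Cldn23 turned to 3.4e-05, to 0.014 with cyclic loess and to 0.026 without both arrays (-0.070 to 0.026 without single arrays). Tjp1 turned to -0.016 and -0.020 with those 2 scalings (-0.0066 to 0.040), Epcam to -0.014 and -0.017 (-0.080 to 0.071), Ocln ran from -0.017 to 0.072 without single arrays, and Cdh1 was 0.090 without both. Of the further genes, Krt14 ran from -0.0083 to 0.066 and Krt80 from -0.026 to 0.087 without single arrays, Krt80 with -0.0090 under array weights and -0.022 without both arrays. The cause of these turns was not tested. The number of all probe sets that passed, 319, became 54 without the filter, 708 with a trended robust eBayes, 174 with the replicate block, 48 without both arrays and 40 to 235 without single arrays. Pregnant and pseudopregnant arrays share replicate numbers, but same-numbered arrays deviated together with correlations of only 0.24, 0.016, -0.10 and 0.044 over all probe sets, so the numbers were not taken as pairs. With the number as a block 0 of the 35 genes passed (limma), and the smallest adjusted p was 0.087 (Cldn3). An unadjusted p under 0.05 was reached by 3 higher and 9 lower genes. The share of all probe sets at that p was not computed for the block fit, so these counts have no background to be read against. Of the 4 pregnant arrays, 2 correlated best with the pseudopregnant array of their own number. The number of arrays and the signal over background limit what could be called. Signal was low for Dsc2, and other genes also had means little above the filter lines of 5.23 to 5.32. Among these were Cldn23 (5.45 pregnant, 5.47 pseudopregnant), Crb3 (5.58 and 5.73), Marveld3 (5.60 and 5.64) and Pkp3 (5.69 and 5.80).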

Other observations

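Each gene was also read relative to the median deviation of the 35 genes on the same array, as a description with no test. On that scale Cldn3 lay between -0.35 and -0.037 on the pregnant arrays, against -0.013 to 0.51 on the pseudopregnant arrays, so that its groups did not overlap. Krt19 (-0.38), Elf3 (-0.32) and Cldn7 (-0.29) remained the other lowest differences on that scale, and Cldn10 (0.53), Krt7 (0.34), St14 (0.33) and Cldn1 (0.31) the highest. The spread between arrays of a group was larger for the 35 genes (median SD 0.15) than over all probe sets (0.10), and ran from 0.047 for Krt18 to 0.39 for Cldn10.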
